A study of Mus musculus with 23 samples.

Results

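The regions described here were open-chromatin regions of the mouse maxillary mesenchyme that were called at embryonic day 10.5 (E10.5) and E11.5 and by none of the E12.5 peak lists. They were selected on their peak calls alone. Peaks of the 9 lists that overlapped by at least 1 bp on the 19 autosomes and X were merged into 118102 regions. A region was a member when 2 or 3 of 3 E10.5 lists, 2 or 3 of 3 E11.5 lists and 0 of 3 E12.5 lists called it. This gave 936 members, 0.793% of all merged regions and 14.7% of the 6357 regions that at least 2 lists of both earlier stages called. These shares describe the rule, and nothing is read from them. Of the other regions reproducible at both earlier stages, 1456 were called by 1 E12.5 list, 2057 by 2 and 1908 by 3, and they serve below for comparison.

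All samples were wild-type C57BL/6 embryos, with no allele or treatment that differs between groups. The maxillary prominence, the embryonic bud of the upper jaw, was dissected on 1 of these 3 days, and the surface ectoderm was peeled away after Dispase digestion. ATAC-seq, in which the Tn5 transposase inserts adapters where chromatin is open, was run on the remaining mesenchyme in 23 library runs. They come from 9 biological samples (3 at each stage), and each sample has 1 peak list. How many embryos a sample pooled, and their sex, is not stated in these sources. The E10.5 lists held 14886 to 19095 peaks, the E11.5 lists 5682 to 41457 and the E12.5 lists 19139 to 50361. The members were unevenly spread over them, with 750, 810 and 617 called by E10.5 samples 1, 2 and 3, and 464, 934 and 935 by E11.5 samples 1, 2 and 3. No batch or date is labelled, and a batch that followed the stage cannot be told apart from the stage.

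Promoters of genes that most cells use are commonly open in every tissue. Many are rich in CG dinucleotides and carry recognition letters of broadly present factors such as ETS proteins, NRF1, SP and KLF proteins and the trimeric CCAAT-binding factor NFY. Enhancers, in contrast, often lie far from genes and are open in particular cell types, and patterning genes of the face such as Msx2 and Meis1 are known for such distant elements. In tissue profiled in bulk, fewer cells with an open site and less opening per cell cannot be told apart. A region with no E12.5 call did not pass the caller's threshold there, which does not show that it was closed.

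Most members lay near the start or end of a gene. Of the 936, 675 (72.1%, exact binomial 95% interval 69.12 to 74.97%) had their strongest summit within 1 kb of the start or end of a protein-coding gene. The interval counts regions as independent and does not cover the spread between lists or settings. The share was 85.7% in lists of equal length and 65.9% within 500 bp, both outside it. The 4 genes given as markers of these regions show the kind of sequence involved. Ppm1k encodes the mitochondrial phosphatase that switches on the dehydrogenase of branched-chain amino acid breakdown. Hook1 encodes an adaptor that ties cargo to the dynein motor. Srek1 encodes a regulator of splicing with arginine- and serine-rich stretches, and Acbd5 a peroxisomal membrane protein that binds acyl-CoA and tethers peroxisomes to the endoplasmic reticulum. The 200 bases before their annotated start are printed 5′ to 3′ in the direction of the gene, from RefSeq on GRCm38.p6 (mm10). They are shown because each region called at E10.5 and E11.5 covers or touches them. Capitals mark letters of ETS (CCGGAAG), NFY (CCAAT), SP and KLF (GGGGCGGGG) or NRF1 (GCATGCGC), on either strand.
Ppm1k, chr6:57535488-57535687, minus strand: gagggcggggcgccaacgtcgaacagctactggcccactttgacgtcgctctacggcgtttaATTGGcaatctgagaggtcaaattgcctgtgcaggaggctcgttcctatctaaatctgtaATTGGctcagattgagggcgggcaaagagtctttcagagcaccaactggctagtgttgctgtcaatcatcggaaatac
Hook1, chr4:95967179-95967378, plus strand: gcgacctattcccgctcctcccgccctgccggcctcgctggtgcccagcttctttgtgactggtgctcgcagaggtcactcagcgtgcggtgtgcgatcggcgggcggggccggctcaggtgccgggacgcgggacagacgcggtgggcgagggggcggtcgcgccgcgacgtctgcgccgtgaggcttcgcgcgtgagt
Srek1, chr13:103774609-103774808, minus strand: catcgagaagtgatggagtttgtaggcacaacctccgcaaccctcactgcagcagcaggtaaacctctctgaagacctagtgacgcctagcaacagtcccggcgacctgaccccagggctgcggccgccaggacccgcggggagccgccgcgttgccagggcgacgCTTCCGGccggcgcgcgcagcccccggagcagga
Acbd5, chr2:23068001-23068200, plus strand: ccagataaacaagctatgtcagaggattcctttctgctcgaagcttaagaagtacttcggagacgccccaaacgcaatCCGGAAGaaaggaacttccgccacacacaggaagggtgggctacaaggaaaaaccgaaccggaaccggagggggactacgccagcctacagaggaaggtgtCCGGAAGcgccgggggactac
Ppm1k held the NFY letters at 138 and 78 bases before its start, both on the opposite strand. Srek1 held the ETS letters at 34 bases before its start on the opposite strand, and Acbd5 held them at 122 and 21 bases on its own strand. Hook1 held none of these letters in this window.

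A further 5 promoters at members are printed for the motifs they carry. Cstf3 encodes a subunit of the factor that cleaves messenger RNA ends. Etaa1 encodes an activator of the ATR kinase at stalled replication forks. Sec31a encodes an outer coat protein of COPII vesicles. Cox10 acts in making the heme of cytochrome c oxidase, and Pccb is the beta subunit of propionyl-CoA carboxylase.
Cstf3, chr2:104590284-104590483, plus strand: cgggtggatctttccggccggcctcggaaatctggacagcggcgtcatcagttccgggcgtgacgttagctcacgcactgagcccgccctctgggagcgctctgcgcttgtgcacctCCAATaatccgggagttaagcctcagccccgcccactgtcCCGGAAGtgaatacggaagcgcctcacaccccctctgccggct
Etaa1, chr11:17953876-17954075, minus strand: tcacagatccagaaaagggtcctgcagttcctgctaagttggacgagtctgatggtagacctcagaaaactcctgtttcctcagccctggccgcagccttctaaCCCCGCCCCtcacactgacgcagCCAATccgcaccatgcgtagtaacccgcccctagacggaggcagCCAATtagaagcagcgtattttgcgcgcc
Sec31a, chr5:100416235-100416434, minus strand: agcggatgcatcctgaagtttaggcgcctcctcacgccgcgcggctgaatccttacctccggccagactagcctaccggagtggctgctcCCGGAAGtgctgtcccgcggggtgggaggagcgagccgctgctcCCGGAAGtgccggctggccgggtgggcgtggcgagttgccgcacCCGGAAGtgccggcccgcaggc
Cox10, chr11:64079473-64079672, minus strand: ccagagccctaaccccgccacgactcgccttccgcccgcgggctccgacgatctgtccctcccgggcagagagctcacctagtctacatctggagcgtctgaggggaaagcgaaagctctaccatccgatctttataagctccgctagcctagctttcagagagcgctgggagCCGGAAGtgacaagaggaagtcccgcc
Pccb, chr9:101034885-101035084, minus strand: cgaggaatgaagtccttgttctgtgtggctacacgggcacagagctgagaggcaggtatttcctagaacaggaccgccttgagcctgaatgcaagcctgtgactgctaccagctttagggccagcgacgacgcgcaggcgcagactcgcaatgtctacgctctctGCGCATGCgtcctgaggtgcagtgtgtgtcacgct
Sec31a carried the ETS letters 3 times, at 110, 66 and 22 bases before its start, each time on its own strand. Cstf3 and Cox10 carried them once, at 43 and 27 bases. Etaa1 carried the NFY letters at 73 and 29 bases and the SP and KLF letters at 96 bases before its start. Pccb carried the NRF1 letters at 35 bases. A match is a run of letters and not a measured binding site.

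Ppm1k was among the most strongly called members. Its region, chr6:57534815-57536056, reached the authors' summit fold enrichment of 5.50, 3.98 and 4.00 in E10.5 samples 1, 2 and 3 and of 8.78, 14.6 and 11.3 in E11.5 samples 1, 2 and 3. Folds are on each list's own scale, so each was divided by the median fold of the 1206 regions that all 9 lists called in that list, and the log2 of this ratio is called relative fold. The relative fold of Ppm1k was 0.40, 0.16 and 0.28 at E10.5 and 0.58, 0.69 and 0.60 at E11.5. Its peak thus stood above the median of the regions called by all 9 lists in all 6 early lists. The nearest E12.5 peak was 167 kb away.

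Hook1 (chr4:95966917-95967691) had folds of 5.33, 4.61 and 3.25 at E10.5 and of 9.63, 13.6 and 9.61 at E11.5. Its relative fold was below 0 in E10.5 sample 3 alone (-0.01) and at most 0.71, in E11.5 sample 1. Srek1 (chr13:103773962-103774786) and Acbd5 (chr2:23067940-23069538) were nearer to the typical invariant region. Srek1 had folds of 4.85, 3.71 and 3.33 at E10.5 and of 5.48, 7.95 and 7.53 at E11.5. Acbd5 had folds of 4.36, 3.53 and 3.67 at E10.5 and of 5.37, 8.00 and 6.89 at E11.5, and its region covered both annotated starts of the gene. The median relative fold over the 6 lists was 0.02 for Srek1 and -0.06 for Acbd5. Among the 183 members that all 6 early lists called, ranked by median relative fold, Ppm1k was number 2, Hook1 8, Srek1 51 and Acbd5 66. These 183 were themselves the more strongly called members, and 55 of them had a median relative fold above 0.

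The other strongly called members at gene boundaries served many cell functions. Emc2 (chr15:43476975-43477718), a subunit of the complex that inserts proteins into the endoplasmic reticulum membrane, had the highest median relative fold among the members called by all 6 early lists, 0.50. Its folds were 3.56, 4.16 and 3.92 at E10.5 and 11.6, 15.2 and 13.5 at E11.5, and the nearest E12.5 peak was 199 kb away. Diaph3 (chr14:87140746-87141557), a formin that builds actin filaments, had folds of 4.04, 3.53 and 4.17 at E10.5 and of 12.8, 15.6 and 11.1 at E11.5. For Emc2 and Diaph3 the relative folds at E11.5 (0.58 to 1.12) lay above all those at E10.5 (-0.23 to 0.34). Gm6712, a gene model on chromosome 17 (chr17:17294000-17294627), was alike, with relative folds of 0.01, -0.09 and -0.05 at E10.5 and 1.27, 0.94 and 0.83 at E11.5. Hspa13, a member of the Hsp70 chaperone family, had relative folds of -0.10, -0.35 and -0.05 at E10.5 and 0.96, 0.82 and 0.97 at E11.5. Ppm1k and Hook1 also had all E11.5 relative folds above those at E10.5. Over all members called, relative fold was more widely spread within each E11.5 list than within any E10.5 list. Its quartiles were -0.50 and -0.18 in E10.5 sample 2 and -0.71 and 0.003 in E11.5 sample 2. These members were ranked by their folds at both stages, so the differences are described without a test.

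Rbis, a ribosome biogenesis factor, Tmx4, a thioredoxin-related protein of the endoplasmic reticulum, and 2610044O15Rik8 had median relative folds of 0.43, 0.40 and 0.36. Etaa1 followed at 0.27, then Nxt1, a messenger RNA export factor, and Manea, a Golgi mannosidase, both at 0.26. Birc2, an inhibitor of apoptosis, Cstf3 and Lin7c, a scaffold protein of cell polarity, had 0.24, 0.23 and 0.21. In each of these 9 genes the peak was called by all 6 early lists. Except in Nxt1 and Lin7c, their relative folds at E11.5 also lay above all those at E10.5. The nearest E12.5 peak was 7.82 kb away for Nxt1, 9.62 kb for Cstf3 and 208 kb for Manea.

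**Figure D1:**
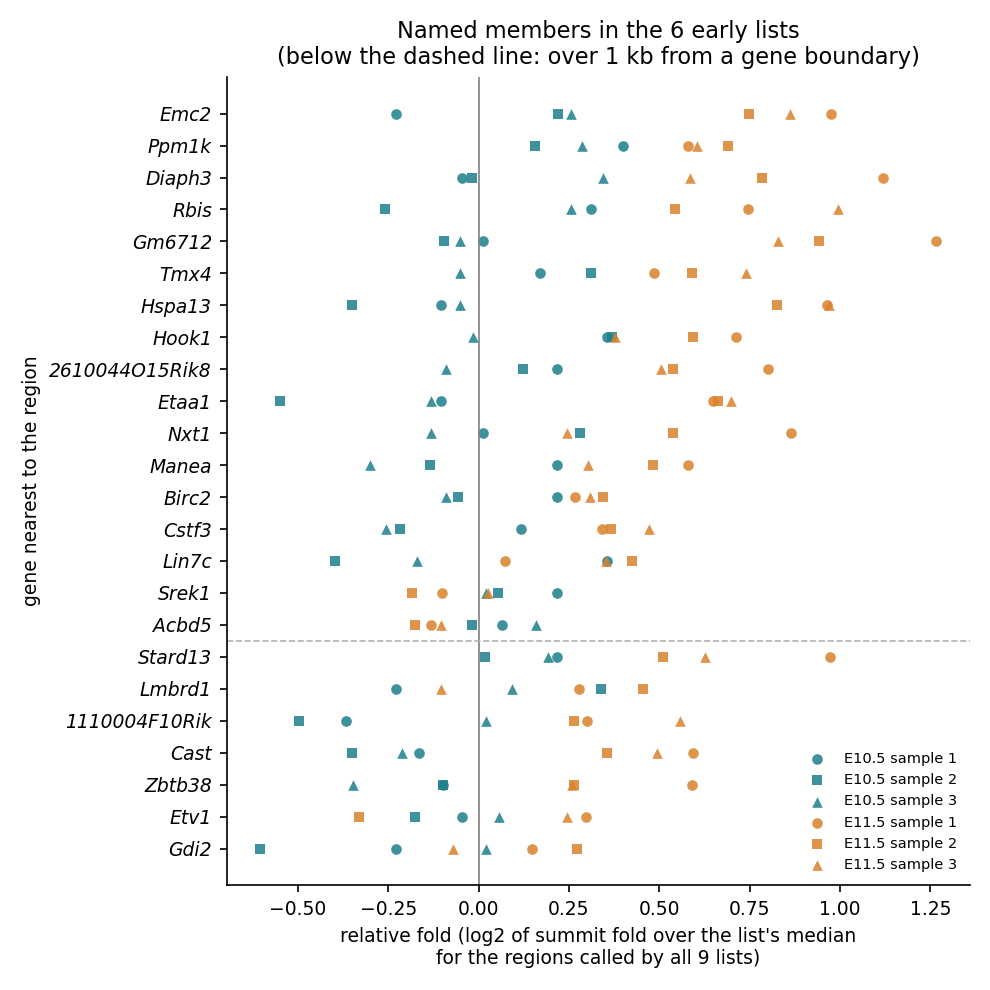
Relative fold (log2 of the summit fold over the list's median for the regions called by all 9 lists) of the strongest members called by all 6 early lists and of Srek1 and Acbd5, with 1 point per early list. Points at E11.5 lie to the right of those at E10.5 for most of the boundary members, Emc2, Diaph3, Gm6712 and Hspa13 among them, but not for Nxt1 or Lin7c. The points of Srek1 and Acbd5 lie near 0 at both stages.

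The share of members near a gene boundary differed with how many early lists called them. Over all members it was 72.1%, against 77.0%, 78.6% and 78.5% of the early regions called by 1, 2 and 3 E12.5 lists, 83.4% of the regions called by all 9 lists and 14.6% of all merged regions. Members called by all 6 early lists had 81.4% and those called by 2 lists of each stage 63.2%. The early regions called by 1, 2 and 3 E12.5 lists were not split in this way. The set called by all 9 lists, with 83.4%, was also called by all 6 early lists throughout. It was more strongly called, with a median relative fold of -0.004 against -0.15 in members called by all 6. An annotated start lay within 1 kb in 620 members (66.2%), against 70.8%, 72.6% and 74.1% in the 3 comparison sets. A pair of gene boundaries, as at divergent promoters, was found at 85 members, 12.6% of those near a boundary, against 14.5%, 15.2% and 19.2%. The boundary share depended on list length and on the distance allowed, with 85.7% when each list was cut to its 5682 strongest peaks and 65.9% within 500 bp. Members were selected by their E12.5 calls, so these shares are given without a test.

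At annotated starts the members' summits were close to the start itself. The median position was 30 bp upstream (-30, quartiles -87 and 47), and 496 of 620 (80.0%) lay within 200 bp. The share within 200 bp was 77.0%, 67.9% and 67.9% for starts in early regions called by 1, 2 and 3 E12.5 lists. Regions called by all 3 E12.5 lists had their summits further upstream, with a median of -62. In the comparison sets the strongest summit could come from an E12.5 list, which it could not in members. Their regions were also wider, with medians of 755, 893 and 1041.5 bp against 726.5 bp in members. The part of these differences in the summit positions was not tested.

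**Figure D2:**
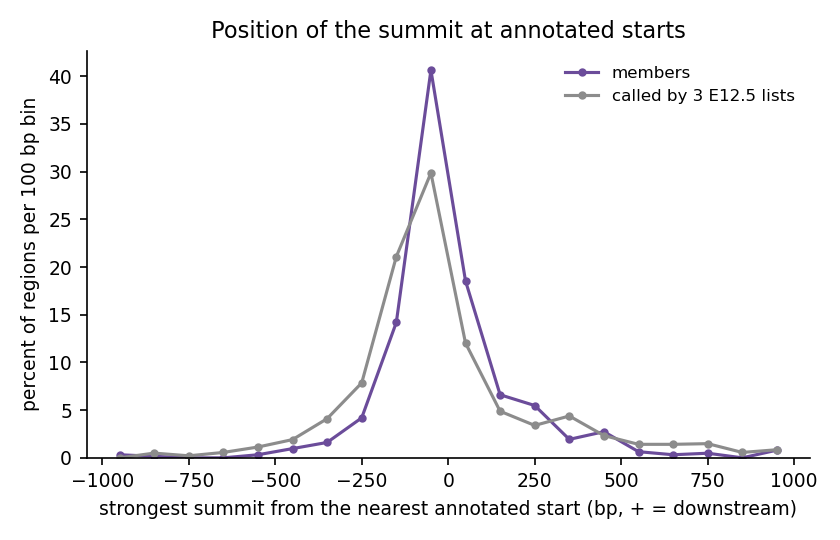
Distance from the nearest annotated start to the strongest summit (bp, positive downstream) as a percent of regions per bin, for members and for early regions that all 3 E12.5 lists called. Both curves peak just upstream of the start, and the member curve is the narrower, with 80.0% against 67.9% within 200 bp. Regions that all 3 E12.5 lists called were wider than members, and their strongest summit could come from an E12.5 list.

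Members had weaker calls than the early regions that all 3 E12.5 lists called, and were closer to those that 1 E12.5 list called. The median −log10 q of members was 3.79, 4.30 and 3.49 in E10.5 samples 1, 2 and 3 and 5.64, 13.5 and 10.3 in E11.5 samples 1, 2 and 3. For early regions called by all 3 E12.5 lists it was 6.53, 8.29 and 6.43 at E10.5 and 7.34, 22.2 and 23.0 at E11.5, so it was higher in each of the 6 lists. Regions called by 1 E12.5 list were close to members, with 4.29, 4.76 and 3.85 at E10.5 and 5.23, 13.3 and 11.8 at E11.5. They were above members in each E10.5 list and in E11.5 sample 3, and below members in E11.5 samples 1 and 2. Their median relative fold was -0.36, against -0.37 in members. When the 6357 early regions were put into 4 equal groups by relative fold, members made up 19.9% of the weakest group, then 17.6%, 12.6% and, in the strongest, 8.74%. Regions called by all 3 E12.5 lists went the other way, with 16.9%, 22.0%, 31.6% and 49.5%. Strongly called members were found as well, since 111 of the 1276 early regions with a relative fold above 0 (8.70%) had no E12.5 call. Ppm1k, Emc2, Diaph3 and Hook1 were among these.

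**Figure D3:**
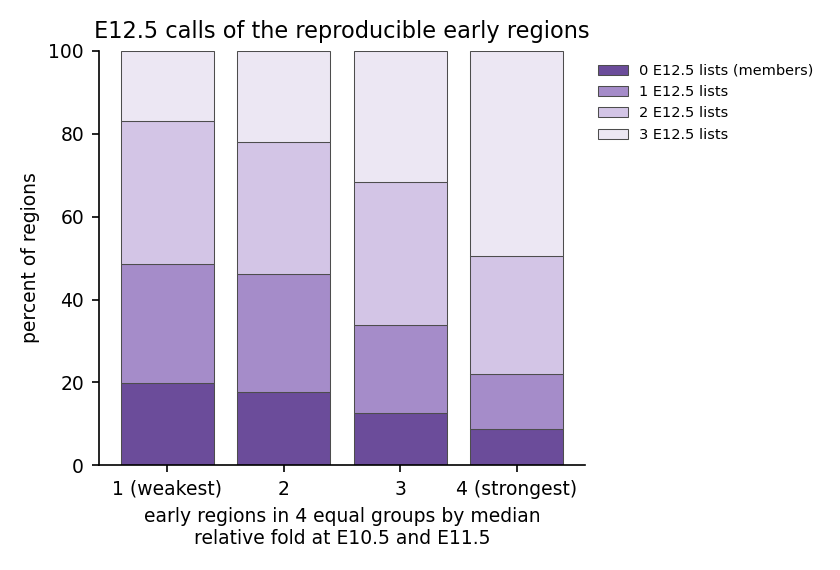
Percent of early regions in each of 4 equal groups by median relative fold that were called by 0 (members), 1, 2 or 3 E12.5 lists. The dark member segment shrinks from 19.9% in the weakest group to 8.74% in the strongest, while the segment called by 3 lists grows from 16.9% to 49.5%.

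The edge of the rule cuts through a continuum of calls. Members called by 2 E10.5 and 2 E11.5 lists (353 regions) had a median relative fold of -0.52, and those called by all 6 lists one of -0.15. Just outside the rule, the 1456 regions with 1 E12.5 call had -0.36, and the 1295 regions with 1 E10.5 call and 2 or 3 E11.5 calls had -0.59. The membership also rested on single lists. Of the 1456 regions with a single E12.5 call, 855 were called by E12.5 sample 2, the longest list, 456 by sample 3 and 145 by sample 1. Without E12.5 sample 2 the count of members was 1792. Leaving out E10.5 sample 1 or 2, or E11.5 sample 2 or 3, gave 493, 439, 469 and 465, since both remaining lists of that stage were then needed. For scale, 200 regions were called by at least 2 lists of E11.5 and of E12.5 and by none of E10.5, and 502 by at least 2 lists of E10.5 and of E12.5 and by none of E11.5.

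The difference between E10.5 and E11.5 was not used by the rule and could be tested over lists. The members' median relative fold was -0.27, -0.35 and -0.30 in E10.5 samples 1, 2 and 3 (mean -0.31 ± 0.04, SD, n = 3). It was -0.12, -0.39 and -0.65 in E11.5 samples 1, 2 and 3 (mean -0.38 ± 0.27, SD, n = 3). The groups overlapped, and the difference of -0.077 did not pass an exact two-sided permutation test (p = 0.7). Its sign turned to 0.17 without E11.5 sample 3 and to 0.054 in lists of equal length. E11.5 sample 1, the shortest list, called 464 members, and E11.5 sample 3, the longest of that stage, called 935, so the medians cover unequal sets of members.

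The relative width of member peaks was higher at E11.5. It is the log2 of peak width over the list's median for the regions called by all 9 lists. The log2 relative width was -1.06, -1.15 and -1.27 in E10.5 samples 1, 2 and 3 and -0.24, -0.38 and -0.82 in E11.5 samples 1, 2 and 3. The groups did not overlap, and the difference was 0.68 (exact two-sided permutation test, p = 0.1). With 3 lists against 3 this is the smallest p the test can give, so it cannot pass 0.05. The direction held in every alternative run for it, with differences of 0.50 to 0.83. In base pairs the members' median widths did overlap between the stages. They were 266, 350 and 189 bp in E10.5 samples 1, 2 and 3 and 325, 621.5 and 365 bp in E11.5 samples 1, 2 and 3. The separation of the stages thus depends on the reference regions as well as on the members.

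Boundary members exceeded the other members in relative fold in each of the 6 early lists. The gap was 0.053, 0.096 and 0.046 in E10.5 samples 1, 2 and 3 and 0.18, 0.24 and 0.31 in E11.5 samples 1, 2 and 3. The stages did not overlap, and the gap was 0.18 wider at E11.5 (exact two-sided permutation test, p = 0.1, the smallest possible). In lists cut to equal length the difference was 0.021 (exact permutation p = 0.6). The difference was thus smaller in lists of equal length.

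**Figure D4:**
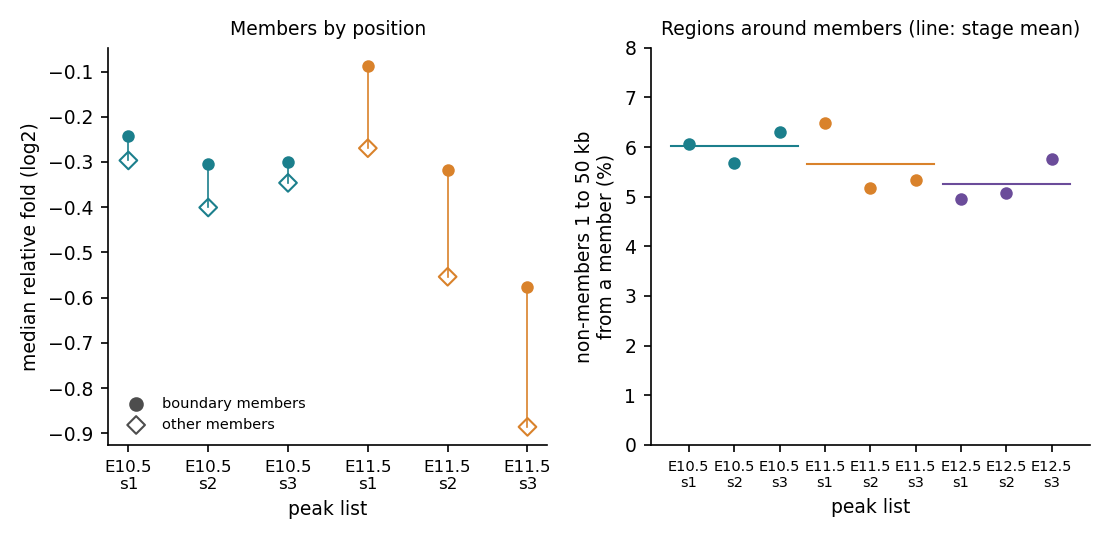
Left, median relative fold (log2) of members near a gene boundary (filled) and of other members (open) in each early list, joined by a line. Right, percent of each list's other regions over 1 kb from a gene that lie 1 to 50 kb from a member, with stage means as lines. On the left the lines are longer in the E11.5 lists, and on the right the stages overlap.

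The surroundings of members held open regions at E12.5 as well. Among regions that were not members and lay over 1 kb from a gene boundary, 6.06%, 5.67% and 6.30% of E10.5 samples 1, 2 and 3 were centred 1 to 50 kb from a member. The E11.5 lists gave 6.48%, 5.18% and 5.33%, and the E12.5 lists 4.96%, 5.08% and 5.75%. The E12.5 mean minus that of the earlier lists was -0.575 percentage points, the groups overlapped, and the difference did not pass an exact two-sided permutation test over 84 arrangements (p = 0.155). The next E12.5 peak was a median of 11.2 kb from a member, and 91 members (9.72%) had one within 500 bp without overlap. At 65 members (6.94%) the next E12.5 peak was over 100 kb away. The distance from an early region called by 1, 2 or 3 E12.5 lists to the next other E12.5 peak exceeded 100 kb in 3.50%, 3.79% and 2.88%.

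Genes of mitochondrial fuel use were among those at members. Over all genes, 849 of the 6181 with an early region within 1 kb had a member there (13.7%). In the list of mitochondrial metabolism this was 8 of 20. Besides Ppm1k these were Dbt, a core subunit of the dehydrogenase that Ppm1k acts on, and Pccb, which works further down the same breakdown route. Hadha and Hadhb, the subunits of the trifunctional protein of fatty acid oxidation, share 1 region between them (chr5:30154807-30155611), and Acads is the short-chain acyl-CoA dehydrogenase. Cox10 and Cox15 act in turn in making heme A for cytochrome c oxidase. Ppm1k is 1 of the 4 genes given as markers of these regions, and the list was written with that known, so its count is not independent of the choice.

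The mitochondrial members other than Ppm1k were weaker. Dbt (chr3:116512749-116513372) had folds of 3.45 and 3.58 in E10.5 samples 1 and 3, no call in sample 2, and 6.02, 9.98 and 7.63 at E11.5. Pccb (chr9:101034435-101035058) had folds of 2.66 and 3.295 in E10.5 samples 2 and 3 and 5.53, 8.08 and 7.88 at E11.5. Their median relative folds were 0.04 and -0.09, near the typical invariant region. Cox15, the shared Hadha and Hadhb region, Cox10 and Acads had -0.29, -0.36, -0.49 and -1.04 and were each called by 2 lists per stage. Mitochondrial translation had 2 of 8 early genes at members, against 13.7% of all genes. Some of these regions also lay within 1 kb of another gene, as Cox15 with Cutc. Among the mitochondrial translation genes, Mrps18b, a mitochondrial ribosomal protein, had a median relative fold of -0.57.

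Splicing and messenger RNA processing had 7 of 22 early genes at members, against 13.7% of all genes. Besides Srek1 they were Srsf4, Srsf10 and Srsf11 of the SR protein family, Sf3b1 of the U2 particle, U2af2, which binds the polypyrimidine tract, and Dhx15, a helicase that takes spliceosomes apart. Srsf11 (chr3:158036279-158036940) was called with folds of 2.91 and 2.83 in E10.5 samples 1 and 3 and of 9.50 and 9.93 in E11.5 samples 2 and 3. Sf3b1 (chr1:55027183-55027745) had 3.72 and 2.58 in the same E10.5 samples and 5.31, 9.37 and 5.93 at E11.5. The median relative folds of Srsf11, Dhx15 and Sf3b1 were -0.07, -0.15 and -0.17, and those of Srsf4, Srsf10 and U2af2 were -0.43, -0.53 and -0.75. The Srsf11 region was shared with Lrrc40 and the U2af2 region with Ccdc106.

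Ubiquitin and proteolysis had 6 of 23 early genes at members (26.1%, against 13.7% of all genes), which was not tested. Uba3, a subunit of the enzyme that activates NEDD8, and Psma1, a ring subunit of the proteasome, were called by all 6 early lists. Uba3 (chr6:97205435-97205912) had folds of 4.20, 3.35 and 3.25 at E10.5 and 7.45, 10.7 and 9.65 at E11.5. Psma1 (chr7:114275661-114276690) had 4.36, 2.71 and 2.50 at E10.5 and 6.17, 12.7 and 8.17 at E11.5. Cul5, a cullin that NEDD8 modifies, and Ube2a, a ubiquitin-conjugating enzyme, had median relative folds of -0.23 and -0.44. Skp1, the adaptor of SCF ligases, and Vcp, the p97 segregase, had -0.65 and -0.66, and an E12.5 peak lay 0.233 kb from the Vcp region.

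Vesicle trafficking and cytoskeletal adaptors had 4 of 17 early genes at members (23.5%, against 13.7% of all genes). These were Hook1, Exoc1 of the exocyst, Sec31a and Copb1 of the COPI coat. Exoc1 and Sec31a had median relative folds of -0.13 and -0.26, and Copb1 had -0.37. Peroxisome genes had 3 of 15, namely Acbd5, Abcd3, an importer of fatty acyl-CoA, and Pex11a, which acts in peroxisome division. Abcd3 had folds of 3.23, 2.98 and 3.08 at E10.5 and 8.24 and 4.97 in E11.5 samples 2 and 3. The Pex11a region was shared with Wdr93. Srek1, Acbd5 and Hook1 sit in their lists by choice, as Ppm1k does.

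DNA repair had 4 of 20 early genes at members and cilium and centrosome 4 of 21. Mre11a and Nbn, both of the complex that senses broken DNA ends, had median relative folds of -0.15 and -0.16, and Xrcc2, which acts in homologous recombination, had -0.37. Of the cilium genes, Tmem67 of the transition zone had -0.25, Bbs4 and Bbs5 of the BBSome had -0.35 and -0.53, and Cep135 of the centriole had -0.57. The Mre11a region was shared with Ankrd49 and the Tmem67 region with Rbm12b2. DNA replication and mitosis had 3 of 16 (18.8%, against the same 13.7%). With so few genes per list these shares say little and were not tested. Among these Cenpf, a kinetochore protein, was called by all 6 early lists (folds 4.36, 4.02 and 2.92 at E10.5, then 7.49, 10.5 and 9.78). Gins1 and Mcm6, both of the replicative helicase, had median relative folds of 0.01 and -0.35.

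Few early regions lay at boundaries of genes listed as regulators of facial development, so their counts say little. Skeletal regulators and matrix genes had 0 of 6 early genes at members, and FGF, BMP, Wnt and hedgehog signalling had 0 of 10. Facial patterning factors had 1 of 7, a share near the 13.7% of all genes. Chromatin regulators had 2 of 19 and translation with tRNA charging 2 of 22. Chd8, a chromatin remodeler, shared its region with Supt16 and had a median relative fold of -0.35. Eif3a and Eif4e, both of translation initiation, had -0.19 and -0.74. 

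Away from gene boundaries, members did include sites near patterning genes. Of the 261 members over 1 kb from a boundary, 177 also had no annotated start within 1 kb, 165 lay inside a gene and 19 were over 100 kb from any boundary. Over all genes, 161 of 794 such early regions with a gene within 100 kb and no start within 1 kb were members (20.3%). For facial patterning factors this was 3 of 8, sites near Meis1 and Msx2 among them. Hedgehog and other signalling genes had 3 of 10, near Gli2, Boc and Etv1, and skeletal regulators had 2 of 3, both near Mef2c.

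These distant members differed in strength. The site 3.09 kb from the homeobox gene Msx2 (chr13:53475753-53476080) had folds of 2.92 and 2.23 in E10.5 samples 1 and 3 and of 3.53 and 2.68 in E11.5 samples 2 and 3. The site 7.65 kb from Meis1, a TALE homeodomain factor (chr11:19026785-19027489), was called by all 3 E10.5 lists, with folds of 4.36, 3.07 and 2.75, and had 3.88 and 2.88 in E11.5 samples 2 and 3. Its relative fold was 0.07, -0.22 and -0.26 at E10.5 and -1.22 and -1.36 at E11.5, so it was higher in each E10.5 list. The median relative folds of the Msx2 and Meis1 sites were -0.96 and -0.26, and an E12.5 peak lay 0.619 kb from the Msx2 site. Gli2, a hedgehog transcription factor, and Boc, a hedgehog co-receptor, had sites with -0.67 and -0.33, the latter with an E12.5 peak 0.490 kb away.

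The sites near Mef2c, a transcription factor of muscle and neural crest, and near Etv1 had no E12.5 peak close by. The Mef2c sites (chr13:83730505-83731543 and chr13:83744931-83745630) lay 63.9 and 78.1 kb from the gene boundary and 115 and 101 kb from the next E12.5 peak. The first was called by all 6 early lists with folds of 4.15, 3.25 and 2.42 at E10.5 and 4.49, 5.35 and 3.84 at E11.5. The second was called by 5 lists and reached 10.4 in E11.5 sample 2. Etv1, an ETS factor downstream of FGF signalling, had its site 1.39 kb from the boundary (chr12:38778364-38779500), with folds of 4.04, 3.16 and 3.42 at E10.5 and 7.23, 7.19 and 8.77 at E11.5. The next E12.5 peak was 677 kb away. Nfia, Pecr and Tenm3 also had 2 distant members each, among 17 genes that were nearest to 2 members.

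The strongest members away from gene boundaries among those called by all 6 early lists were of mixed kind. Stard13, a GTPase-activating protein, had a site inside the gene, 59.6 kb from its boundary (chr5:151368253-151369162), with folds of 4.85, 3.62 and 3.75 at E10.5 and 11.5, 12.9 and 11.4 at E11.5. Zbtb38, a zinc finger protein that binds methylated DNA, and Gdi2, a Rab recycling factor, had sites with median relative folds of 0.08 and -0.02. Lmbrd1, a lysosomal cobalamin exporter, 1110004F10Rik and Cast, an inhibitor of calpains, counted as away from the gene boundary but lay at an annotated start inside the gene, 104, 216 and 81 bp from it.

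The promoters at members were less rich in G and C and more often carried the ETS letters than those at regions called by 3 E12.5 lists. A promoter window ran from 250 bases before to 50 after an annotated start, and 695 windows had their start in a member. Starts in early regions called by 1, 2 and 3 E12.5 lists gave 1189, 1720 and 1754 windows, out of 21044. The median GC content was 61.0% in members and 62.7%, 64.7% and 65.0% in the others, against 56.7% over all promoters. The ETS letters CCGGAAG, read on both strands, were in 25.5% of member windows and in 23.2%, 19.4% and 16.6% of the others, against 11.7% of all promoters. The SP and KLF letters GGGGCGGGG went the other way, with 20.7% in members and 25.9%, 26.9% and 28.1% in the others (all promoters 15.5%). All promoters include 10992 windows whose start lay in no region, with the ETS letters in 4.61% and the SP and KLF letters in 9.34%. For starts in merged regions outside these sets the shares were 18.6% and 17.7%. The NFY letters CCAAT were in 39.0%, 36.2%, 43.4% and 47.9% (all promoters 38.5%). The NRF1 letters GCATGCGC were in 7.34%, 6.06%, 6.45% and 5.64% (all promoters 3.54%).

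**Figure D5:**
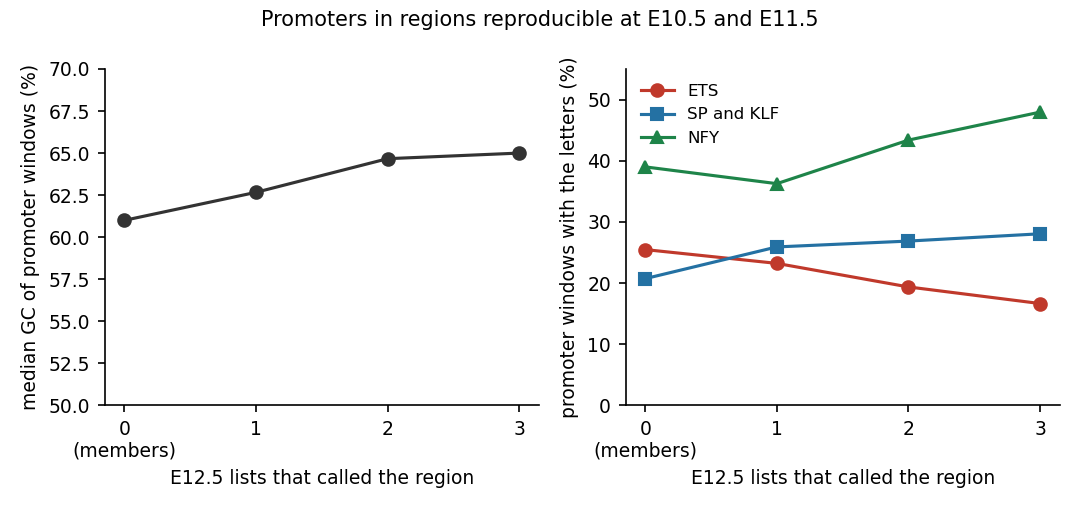
Left, median GC content (%) of promoter windows whose start lies in an early region, by the number of E12.5 lists that called it. Right, percent of these windows with the ETS, SP and KLF, or NFY letters. ETS goes from 25.5% in members to 16.6% in regions called by all 3 E12.5 lists, while GC content and the SP and KLF share go up.

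Between members and regions called by 3 E12.5 lists, the ETS difference was present at both levels of GC content. In windows below 64% GC the ETS letters were in 25.6% of member windows and in 16.3% of those at regions called by 3 E12.5 lists, and in the other windows in 25.3% and 16.9%. The SP and KLF shares were 16.7% and 16.3% in the windows of lower GC, and 27.2% and 36.8% in those of higher GC. By strength of call, the ETS share of members and of regions called by 3 E12.5 lists was 25.9% and 17.0% in the weaker regions and 24.7% and 16.5% in the stronger. Regions called by 1 E12.5 list had 21.2% in the weaker and 27.0% in the stronger, the latter above members. The NFY share was higher in the stronger regions. It was 33.3% in members and 33.3% in regions called by 3 E12.5 lists among the weaker regions, and 49.4% and 54.6% among the stronger. Windows of 1 gene overlap, and these shares are descriptions without a test.

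A further 11 motifs were searched on both strands, and matches of different motifs may overlap. The TATA letters TATAAA were in 5.47% of member windows and 4.10% of those at regions called by 3 E12.5 lists, against 12.7% of all promoters. The homeodomain letters TAATTA were in 2.59% and 0.684% (all 4.47%), and the TEAD letters GGAATG in 12.2% and 9.41% (all 13.5%). YY1 (AAGATGGCG) had 3.17% and 3.08% (all 1.84%), and CRE (TGACGTCA) had 4.46% and 3.71% (all 2.26%). ZNF143 (CTACANNTC) had 5.18% and 7.64% (all 4.94%), and the E-box CACGTG had 9.50% and 11.1% (all 7.91%). E2F (TTTCCCGC) had 2.30% and 3.02% (all 1.42%), and its variant TTTGGCGC had 1.29% and 1.37% (all 0.642%). AP-1 (TGANTCA) had 3.88% and 3.99% (all 7.04%), and the Twist E-box CATCTG had 8.78% and 9.01% (all 14.4%). Member promoters thus held the TATA, AP-1 and Twist letters less often than all promoters, as was true of promoters at regions called by 3 E12.5 lists.

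Markers of other cell types were checked at gene boundaries and starts. Of 6 facial mesenchyme markers 5 were called by 2 or more lists. By stage in order of age, Twist1 was called by 3, 2 and 3 lists, Prrx1 by 0, 2 and 0 and Pdgfra by 0, 2 and 1. Msx1 was called by 1, 2 and 1 lists, Col1a2 by 2, 2 and 1, and Alx4 by none. Of the epithelial markers 2 of 6 were called by 2 or more lists, and Trp63 and Krt14 by none. Calls by 2 or more lists were also found for 2 of 5 endothelial markers, 2 of 4 blood markers and 1 of 3 muscle markers. Kdr was called by 3, 2 and 2 lists by stage and Erg by 2, 1 and 0. Klf1 was called by 1, 2 and 3 lists and Spi1 by 0, 2 and 0. Of the neuron and glia markers 3 of 4 were called by 2 or more lists. Elavl4, a neuronal RNA-binding protein, was itself a member (chr4:110351146-110352146). Its folds were 4.04, 3.16 and 2.58 at E10.5 and 8.68, 10.7 and 5.13 at E11.5, and the nearest E12.5 peak was 205 kb away. Tubb3, a neuronal tubulin, had calls in 1, 2 and 0 lists and the glial factor Sox10 in 0, 0 and 1. The part of other cell types in the membership was not tested.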

How the data were processed

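Wild-type C57BL/6 maxillary mesenchyme was profiled by ATAC-seq in 9 biological samples (23 library runs). Bowtie2, MACS2 and deepTools 3.3.1 were used with mm10, per the submitters' processing notes. Read filters, transposase shift and threshold were not given in the sources used here. Per peak, the deposited lists hold the authors' summit fold enrichment (a ratio), −log10 p-value and −log10 q-value. These are the authors' own scores and were used within a list only. The lists hold no read counts, so depth is unknown and no read-level precision is given.

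Peaks were merged by position, and the strongest summit was placed against 21627 protein-coding genes of RefSeq GRCm38.p6 and, in the promoter table, 21044 starts of 17273 of them. Exons and introns were not separated. Samples are numbered as labelled. Exact two-sided permutation tests used the lists as replicates, and the p-values cover only the spread of these samples. To see whether sample numbers pair lists, each member's stage mean was subtracted from its relative folds, over the 183 members called by all 6 early lists. The deviations of same-numbered E10.5 and E11.5 lists then correlated at 0.042, -0.028 and 0.016. Differently numbered lists gave -0.10 to 0.10. A shift common to a whole list drops out of these correlations, so they cannot exclude pairing. The numbers were not taken as pairs in the main tests, and pairing was run as an alternative. The steps were tested on simulated lists. Computations used SciPy 1.17.1, pandas 2.3.3 and NumPy 2.4.6 under Python 3.11.15, and plots Matplotlib 3.10.9.

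The members, the gene lists and the tests were chosen with earlier results of these data known. Named genes are the 4 given ones, the 15 boundary members and 8 other members with the highest median relative fold among those called by all 6 early lists, and members at genes of 14 lists, up to 4 each. Further list genes, the X members and the zinc finger members were named after their values were seen. Chromosome 18 and some named genes are not reported here.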

Additional observations from a re-analysis of the deposited data

How the results depend on the processing

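The boundary share of members was 75.3% when peaks were merged at 100 bp overlap, 85.7% in lists of equal length, 81.4% for members called by all 3 lists of both early stages, and 65.9% and 78.0% within 500 and 2500 bp of a boundary. Leaving out 1 list gave 72.2 to 78.5%. The number of members was 183 when all 3 lists of both stages were required and 439 to 1792 with 1 list left out. It was 1000 with the 100 bp merge, 956 with a −log10 q of at least 2, 788 in lists of equal length and 845 with no E12.5 peak within 500 bp. The relative fold difference reversed to 0.054 in lists of equal length (exact permutation p = 0.6) and to 0.17 without E11.5 sample 3, within a range of -0.14 to 0.17. The differences in relative width, boundary gap and surroundings kept their direction in every alternative run for them.

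With the replicate block, in which lists of the same number were paired, the values stayed at -0.077 for relative fold, 0.68 for relative width, 0.18 for the boundary gap and -0.575 for the surroundings. The exact permutation p was 0.75, 0.25, 0.25 and 0.148. The block changed no call.

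Depth limits all of this. An absent call in a list of 19139 peaks says less than one in a list of 50361, folds are known only for called peaks, and read counts at members in the E12.5 samples were not analysed here.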

Other observations

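Members were a larger share of the early regions on chromosome X than on any autosome, with 24 of 93 (25.8%). Chromosomes 13 and 14 followed with 20.2% and 18.9%, and chromosome 19 was lowest with 9.55%. The 24 regions included the promoters of Fancb, a DNA crosslink repair protein, and Piga, which starts the synthesis of membrane anchors, with median relative folds of 0.40 and 0.31 and the next E12.5 peak 875 and 343 kb away. Others lay at Ube2a, at Gpc3, a glypican that binds growth factors, and at Msn, a linker of membrane and actin. The lists differed in how much of X they called outside the members. It was 1.37%, 1.60% and 0.325% of regions in E10.5 samples 1, 2 and 3, then 3.02%, 2.63% and 1.63% in the E11.5 lists and 0.623%, 1.19% and 1.05% in the E12.5 lists. E10.5 sample 3 called 4 of the 24 members and E10.5 sample 2 all 24. The E12.5 lists thus had less of X throughout than the E11.5 lists, and the part of this in the X members was not tested.

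Zinc finger genes, a large family of DNA-binding proteins, had a member at 31 of 172 early genes (18.02%, against 13.7% of all genes). Their names were matched by the start of the symbol. Zik1, Zfp160 and Zfp866 had the highest median relative folds among zinc finger members. The next E12.5 peak was 486 kb from the Zik1 region, 35.5 kb from Zfp160 and 11.1 kb from Zfp866.

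The 183 members called by all 6 early lists were ordered more alike among E11.5 lists than among E10.5 lists. Over these members, Pearson's r of relative fold was 0.69, 0.72 and 0.81 between E11.5 lists and 0.44, 0.46 and 0.50 between E10.5 lists. Between stages it was 0.25 to 0.53. These are descriptions across regions, which share the genome's base composition and the rule that chose them. Over all members called, relative fold also covered a narrower range in the E10.5 lists. Its quartiles were -0.44 and -0.10 in E10.5 sample 1 and -0.35 and 0.15 in E11.5 sample 1. The part of this range in the correlations was not tested.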
